A study of Mus musculus with 32 samples.

Results

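The breakdown of leucine, isoleucine and valine, the branched-chain amino acids, and of the propionate that arises from it was followed through 10 genes in mouse liver: Bckdha, Bckdhb, Dbt, Bckdk, Ivd, Mccc1, Mccc2, Hibch, Pcca and Pccb. They were taken by name from a count table of 20076 genes, and all 10 were among the 11566 genes that passed the filter on low counts. The samples, all labelled liver, came from male C57BL/6J mice, either wild type (WT) or carrying a knockout of Acadm (KO), the gene of medium-chain acyl-CoA dehydrogenase, which opens the mitochondrial oxidation of medium-chain fatty acids. Both genotypes ate a low-fat (LF) or a high-fat (HF) semi-synthetic diet for 6 weeks, the fat of the latter being palm oil, and were then either fasted for 16 h (fasted) or left on their diet (fed). This gave 8 groups of 4 mice, labelled with ages from 7.5 to 16 without a unit. The knockout is of the whole animal, not of the liver alone, and the WT mice were littermates. Each library was prepared from total RNA of one liver piece with a kit that reads the 3′ ends of transcripts.

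Branched-chain amino acids first lose their amino group, and the resulting ketoacids are oxidised by the branched-chain ketoacid dehydrogenase complex of mitochondria. Bckdha and Bckdhb encode the α and β subunits of its E1 component, and Dbt encodes the E2 core. The kinase Bckdk phosphorylates and inactivates E1, and the phosphatase Ppm1k removes that phosphate. Beyond the complex the pathways part. Leucine passes through isovaleryl-CoA dehydrogenase (Ivd) and methylcrotonyl-CoA carboxylase (Mccc1 and Mccc2), valine through 3-hydroxyisobutyryl-CoA hydrolase (Hibch), and both isoleucine and valine yield propionyl-CoA, which propionyl-CoA carboxylase (Pcca and Pccb) turns into methylmalonyl-CoA. Both carboxylases are built from an α subunit that carries biotin, encoded by Mccc1 and Pcca, and a β subunit, encoded by Mccc2 and Pccb. In rodents the liver has little of the enzyme that removes the amino group and much of the dehydrogenase, so that it oxidises ketoacids released by other tissues.

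Total counts ran from 2031053 to 4292200 per library, with a median of 2899001. In the 15 WT mice used Acadm was between 189.8 and 748 CPM (counts scaled to an effective library size of 1000000), and in the 15 KO mice between 8.98 and 37.1, so that the genotype labels and the counts did not conflict. WT LF fed replicate 2 and KO HF fasted replicate 4 were left out of the main analysis. The summed level of 10 heart markers was 41482 CPM in the latter, against at most 232 in the 30 mice used, and its 10 hepatocyte markers summed to 1111 CPM, against at least 58636. By these markers the library labelled KO HF fasted replicate 4 was heart and not liver, and every value given with all 32 mice includes it. In WT LF fed replicate 2 the hepatocyte markers summed to 49802 CPM, below all 30 remaining mice. Among these 30, 8 markers of the acinar pancreas reached 15715 CPM in WT HF fasted replicate 2, with a median of 2.74, and 8 skeletal muscle markers reached 1669 CPM in KO HF fed replicate 1, with a median of 1.29. Hepatocyte markers summed to between 58636 and 78064 CPM in fed and between 62623 and 90917 CPM in fasted mice. Macrophage markers had a median sum of 349.7 CPM in fed and 267 in fasted mice, and heart markers 20.8 and 2.74; the part of these in the results on fasting was not tested. In whole liver, fewer cells of a type and less RNA per cell cannot be told apart.

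Across the 8 groups most of the 10 genes moved little. The ratio of the highest to the lowest group mean was 1.11 for Ivd, 1.22 for Dbt, 1.23 for Mccc2, 1.302 for Pccb, 1.34 for Bckdhb, 1.37 for both Bckdha and Mccc1, 1.41 for Hibch, 1.56 for Pcca and 2.96 for Bckdk. Ivd was the most even, with a mean of 111 ± 11.3 (SD, n = 3) in WT LF fed mice and 124 ± 10.9 (SD, n = 4) in fed KO mice on HF, both in CPM, a gap of about the SD within either group. Bckdk had the widest range, from 4.80 ± 2.24 (SD, n = 4) in WT HF fed mice to 14.2 ± 2.52 (SD, n = 4) in WT mice fasted after LF, both in CPM, and its counts were the lowest, between 8 and 68 per library. One liver, KO LF fasted replicate 1, stood low for several genes at once. It held the lowest level of all 30 mice for Dbt (73.7 CPM), Mccc1 (27.4), Mccc2 (9.71), Hibch (23.8), Pcca (26.9) and Pccb (96.2), and the highest for Bckdha (114). Its 3 erythroid markers summed to 957 CPM, the highest of the 30 mice, whose median was 511; the part of this in its low levels was not tested.

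**Figure D1:**
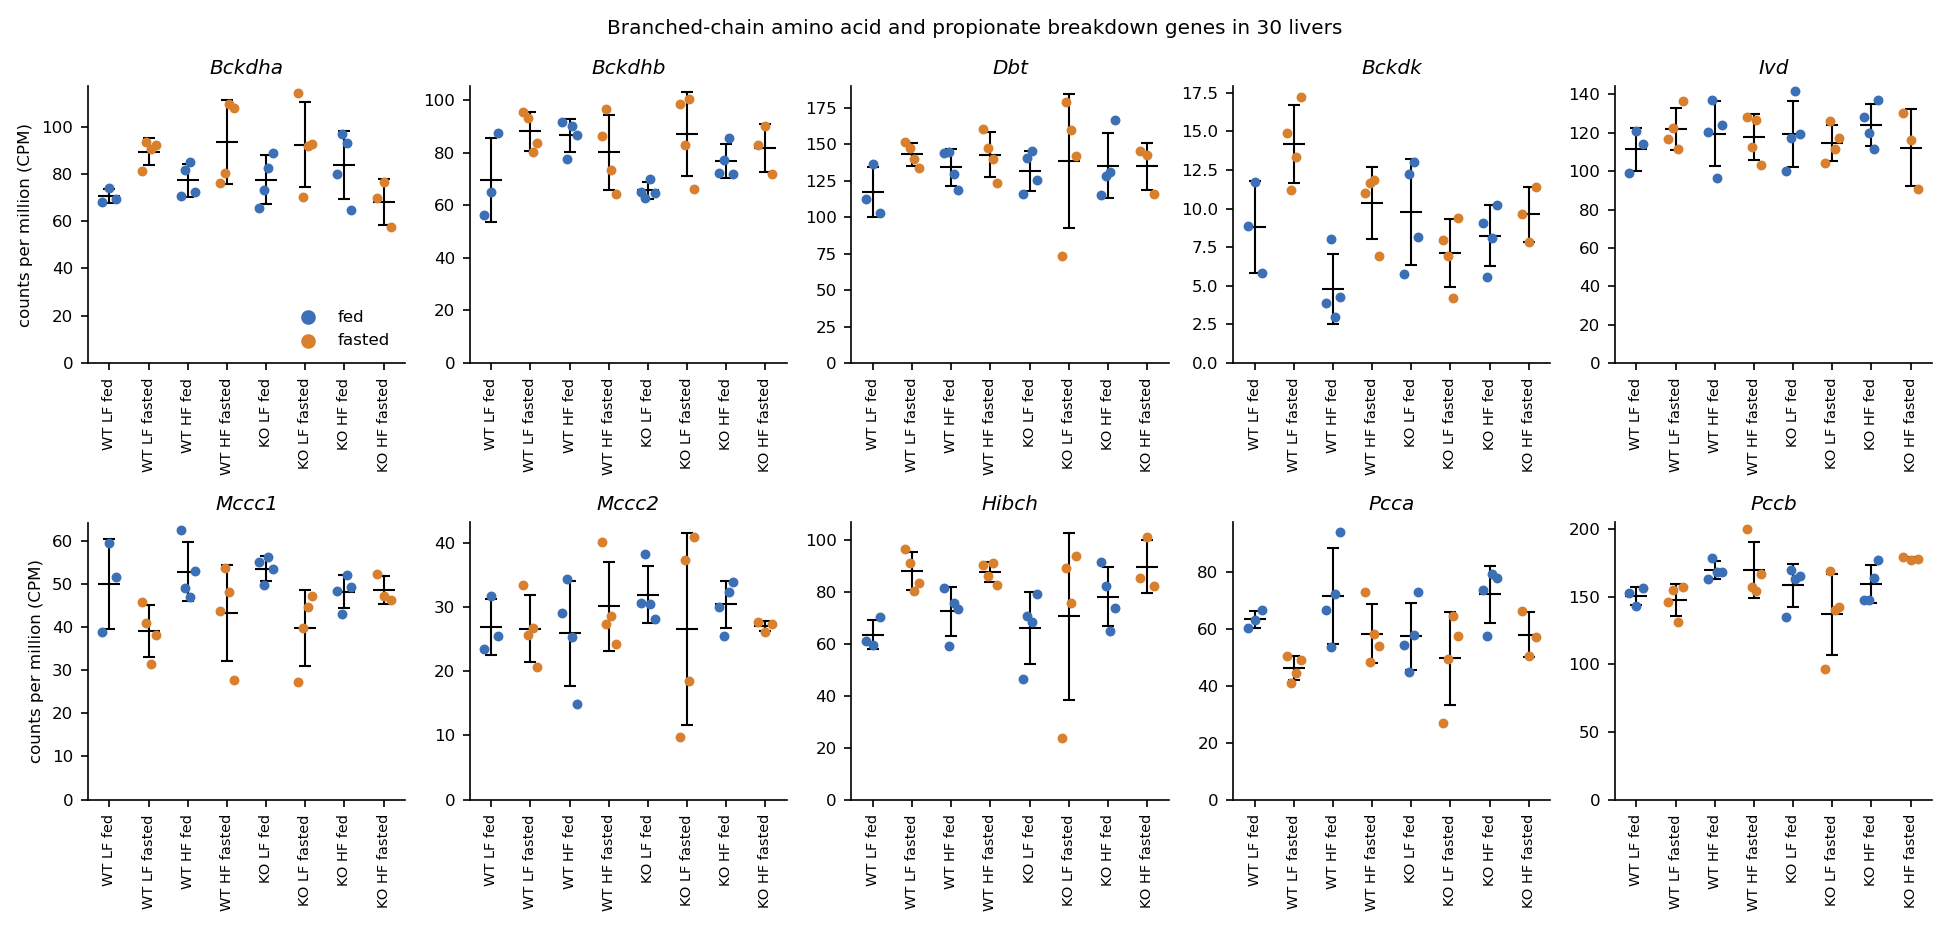
Level of each of the 10 genes in CPM (vertical axis, starting at 0) in the 8 groups (horizontal axis). Points are single livers, blue fed and orange fasted, and black marks are the group mean with its SD (n = 3 in WT LF fed and KO HF fasted, n = 4 elsewhere). Fasted points of Pcca in WT LF mice, 40.9 to 50.3 CPM, lie below the fed ones, 60.3 to 66.4 CPM, and one KO LF fasted liver lies far below its group for Hibch, at 23.8 CPM.

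The first question was what fasting did to these genes. Of the 10, 2 fell in fasted livers and none rose, and both were the biotin-carrying α subunits of the carboxylases. Averaged over the 4 combinations of genotype and diet, Pcca was 0.80-fold (log2 change of -0.32 ± 0.103 SE, 95% interval -0.53 to -0.11, adjusted p = 0.0233) and Mccc1 was 0.83-fold (log2 change of -0.26 ± 0.0959 SE, 95% interval -0.46 to -0.07, adjusted p = 0.0486) of the fed level, in edgeR's quasi-likelihood F test, its p-values adjusted over all genes by the Benjamini-Hochberg method. The same test called 18.9% of all genes for fasting, 9.77% as higher and 9.14% as lower, so that 2 of 10 is near the share among all genes. The median log2 change of the 10 genes was 0.05, and that over all genes tested was 0.00; the median size regardless of sign was 0.16 against 0.20.

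Bckdha and Bckdhb, the subunits of E1, and Dbt, the E2 core, did not pass the test for fasting. Bckdha lies on chromosome 7 (GRCm38, chr7:25629946-25658981, minus strand). It ran from 64.8 to 96.6 CPM in fed mice, with a median of 74.1, and from 57.4 to 114 in fasted mice, with a median of 90.6. Its log2 change with fasting was 0.14 ± 0.0843 SE (adjusted p = 0.281). The 3 KO HF fasted livers, at 69.9, 76.6 and 57.4 CPM, overlapped with the fed ones, as did those of every other diet and genotype but WT LF. In WT LF, fed mice stood at 68.3, 74.1 and 69.3 CPM and fasted mice at 81.2, 93.5, 90.6 and 92.4 CPM. How many of all genes separated without overlap was not counted, here or for the genes below. For fasting, 2231 of the 11566 genes tested had an unadjusted p under 0.05 in WT LF, 1063 in WT HF and 2932 in KO LF. The WT LF fed mice were all on sequencing lane 8, while the fasted ones were on both lanes. Bckdhb, on chromosome 9 (chr9:83925145-84124240, plus strand), changed by 0.18 ± 0.0815 SE (adjusted p = 0.126; 0.0472 without WT LF fed replicate 4), with a median of 72.3 CPM in fed and 83.5 CPM in fasted mice. In KO LF mice fed livers held 65.0, 62.8, 70.1 and 64.5 CPM of Bckdhb and fasted ones 98.4, 82.9, 100.2 and 66.1 CPM, a log2 change of 0.40 ± 0.158 SE (adjusted p = 0.0857). The groups there overlapped by a single fasted liver, and without it, KO LF fasted replicate 4, the adjusted p was 0.0316. Dbt, on chromosome 3 (chr3:116513070-116549981, plus strand), had a log2 change of 0.11 (95% interval -0.07 to 0.30, adjusted p = 0.464). Its medians were 129 CPM in fed and 143 CPM in fasted mice.

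Bckdk, the kinase that switches the complex off, lies on chromosome 7 (chr7:127904082-127910221, plus strand) and varied more than any of the others. In WT LF mice the fed livers held 8.89, 11.7 and 5.81 CPM and the fasted ones 14.9, 11.2, 13.4 and 17.2 CPM. In WT HF mice fed livers were at 3.89, 8.05, 2.98 and 4.27 CPM and fasted livers at 11.0, 11.7, 11.9 and 6.94 CPM. In each WT stratum the fasted mice were mostly higher, with 1 fed liver inside the fasted range. In KO LF mice the mean was lower in fasted mice, but the feeding states overlapped. Fed livers there were at 5.77, 12.2, 13.0 and 8.14 CPM and fasted livers at 7.94, 6.95, 4.22 and 9.38 CPM. KO HF mice held 9.08, 5.59, 8.11 and 10.3 CPM when fed and 9.66, 7.83 and 11.4 CPM when fasted. None of these differences passed the test over all genes. The log2 change was 0.69 ± 0.346 SE in WT LF (adjusted p = 0.265), 1.12 ± 0.342 SE in WT HF (adjusted p = 0.139), -0.43 ± 0.335 SE in KO LF (adjusted p = 0.457) and 0.22 ± 0.349 SE in KO HF mice (adjusted p = 0.981). The difference of the fasting effect between KO and WT mice was -1.02 ± 0.343 SE on the log2 scale, with an adjusted p of 0.942, and no gene tested passed for that difference, with DESeq2 or limma voom either, while 573 had an unadjusted p under 0.05 in edgeR. Over all strata Bckdk changed by 0.40 ± 0.171 SE (adjusted p = 0.104). This mean passed the threshold with limma voom (adjusted p = 0.0490) and with all 32 mice (0.57, adjusted p = 0.0407). The set of 32 counts the heart library, at 31.4 CPM of Bckdk, as a fasted liver. Without WT HF fed replicate 2 the mean also passed (adjusted p = 0.0385), and the change within WT HF mice had an adjusted p of 0.0496.

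Ivd, the dehydrogenase of isovaleryl-CoA in leucine breakdown (chr2:118861954-118882909, plus strand), was at a median of 119.8 CPM in fed and 117 CPM in fasted mice. Its log2 change was -0.02 (adjusted p = 0.887), and the 95% interval of the fold ran from 0.88 to 1.10. Hibch, the hydrolase of valine breakdown (chr1:52844929-52920986, plus strand), ran from 46.5 to 91.5 CPM in fed mice, with a median of 70.8, and from 23.8 to 101 CPM in fasted mice, with a median of 86.1. In WT LF mice its fed livers held 61.0, 59.7 and 70.3 CPM and its fasted livers 96.9, 91.5, 80.6 and 83.5 CPM, without overlap. In WT HF mice the fed ones were at 81.7, 59.3, 75.7 and 73.6 CPM and the fasted ones at 90.6, 86.1, 91.2 and 82.8 CPM, again without overlap. The KO strata overlapped, with KO LF fasted mice at 23.8, 89.4, 75.96 and 93.8 CPM. The mean log2 change of 0.26 ± 0.115 SE did not pass (adjusted p = 0.117). Without the low liver, KO LF fasted replicate 1, it was 0.33 with an adjusted p of 0.00135.

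The leucine carboxylase, methylcrotonyl-CoA carboxylase, differed between its subunits in the test for fasting. Mccc1 (chr3:35959312-36000678, minus strand) was at 38.9, 59.7 and 51.6 CPM in fed and 45.8, 40.9, 31.5 and 38.2 CPM in fasted WT LF mice. WT HF mice held 62.6, 49.0, 47.1 and 53.0 CPM fed and 43.8, 53.8, 48.2 and 27.7 CPM fasted. KO LF mice held 55.1, 49.7, 56.3 and 53.5 CPM fed and 27.4, 39.9, 44.8 and 47.3 CPM fasted, the only stratum in which the feeding states did not overlap. That stratum did not pass alone in edgeR (adjusted p = 0.128). KO HF mice held 48.6, 43.1, 52.3 and 49.4 CPM fed and 52.5, 47.3 and 46.3 CPM fasted. The call for Mccc1 sat at the threshold. It was lost when any one of 21 of the 30 mice was left out, with an adjusted p of up to 0.124 without WT LF fed replicate 3, and with all 32 mice (adjusted p = 0.214). Mccc2 (chr13:99948530-100015639, minus strand) had a median of 30.04 CPM in fed and 27.3 CPM in fasted mice and a log2 change of -0.05 ± 0.141 SE (adjusted p = 0.860). A change of Mccc2 as large as that of Mccc1 lay inside its 95% interval of -0.34 to 0.23.

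The largest fall among the 10 genes was that of Pcca, which encodes the α subunit of propionyl-CoA carboxylase. Pcca (chr14:122534324-122891100, plus strand) stood at 60.3, 63.0 and 66.4 CPM in fed and 50.3, 40.9, 44.4 and 49.1 CPM in fasted WT LF mice, without overlap. WT HF mice held 66.5, 53.4, 72.1 and 93.9 CPM fed and 72.7, 48.1, 58.2 and 53.9 CPM fasted. KO LF mice held 54.1, 44.7, 57.7 and 72.9 CPM fed and 26.9, 49.4, 64.4 and 57.5 CPM fasted. KO HF mice held 73.7, 57.5, 79.3 and 77.9 CPM fed and 66.0, 50.4 and 57.1 CPM fasted. The mean was lower in fasted mice in each of the 4 strata, by -0.45 in WT LF, -0.29 in WT HF, -0.22 in KO LF and -0.32 in KO HF mice on the log2 scale, and no stratum passed alone. Without KO LF fasted replicate 1, the liver low for 6 of the genes, the KO LF value was -0.02, and without WT HF fed replicate 4 the WT HF value was -0.13. The mean effect lost its call without KO HF fasted replicate 2 (adjusted p = 0.0547), without WT HF fed replicate 4 (adjusted p = 0.0505), with all 32 mice (-0.29, adjusted p = 0.0985), with WT LF fed replicate 2 included (-0.27, adjusted p = 0.0922), with sequencing lane as a term (-0.28, adjusted p = 0.0512) and within lane 7 alone. Within lane 7 it was -0.11 (adjusted p = 0.807) and within lane 8 it was -0.44, while Mccc1 was at -0.18 and -0.35. Pccb (chr9:100982032-101034898, minus strand) had a median of 163 CPM in fed and 157 CPM in fasted mice. Its log2 change was -0.02 ± 0.0745 SE (adjusted p = 0.905). Its 95% interval, -0.17 to 0.13, did not reach the estimate for Pcca but overlapped with the interval of Pcca, -0.53 to -0.11. This is no test of a difference between the subunits.

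Because both carboxylases were called for one subunit, the ratio of the subunits was computed in each liver, after the values above had been seen. The level of Pcca over that of Pccb was lower in fasted mice by -0.30 on the log2 scale, a fold of 0.81. Its mean was -1.29 ± 0.273 (SD, n = 15) in fed and -1.59 ± 0.216 (SD, n = 15) in fasted mice, and it was lower in each of the 4 strata, although by only -0.03 in KO LF mice. Within lane 8 the difference was -0.38 and within lane 7 it was -0.19. Because the ratios were chosen after Pcca and not Pccb had been called in the same livers, they are given as descriptions, with no test. Mccc1 over Mccc2 changed by -0.18, with -0.32 in WT LF, -0.57 in WT HF, 0.01 in KO LF and 0.18 in KO HF mice. Bckdha over Bckdhb changed by -0.04, with -0.02 in WT LF, 0.38 in WT HF, -0.15 in KO LF and -0.38 in KO HF mice. Bckdk over Ppm1k, the kinase over the phosphatase, changed by -0.53, with 0.74 in WT HF mice, -0.61 in WT LF, -1.64 in KO LF and -0.61 in KO HF mice.

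**Figure D2:**
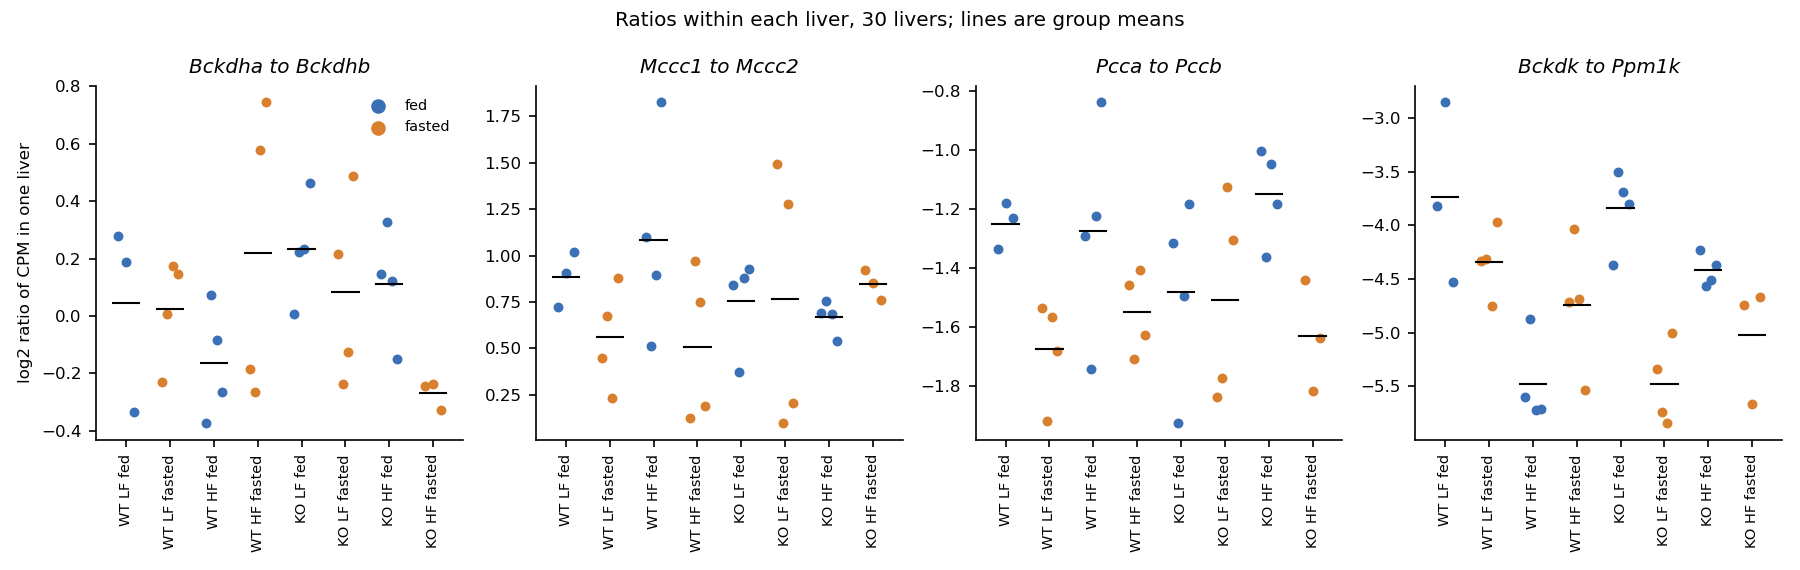
Log2 ratio of 2 genes within each liver (vertical axis) in the 8 groups (horizontal axis). Points are single livers, blue fed and orange fasted, and lines are group means (n = 3 in WT LF fed and KO HF fasted, n = 4 elsewhere). The Pcca to Pccb ratio averaged -1.29 in fed and -1.59 in fasted mice, while the mean Bckdk to Ppm1k ratio was higher in fasted than in fed WT HF mice and lower in the other 3 strata.

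The stretches of 250 bases before the RefSeq starts of the 4 carboxylase genes (GRCm38.p6) are shown as a description of both subunits of each enzyme. For fasting one subunit of each was called and its partner was not, which is no test of a difference between them. The call of Mccc1 sat at the threshold, and its change lay inside the interval of Mccc2. They are Mccc1 at chr3:36000679-36000928 on the minus strand, Mccc2 at chr13:100015640-100015889 on the minus strand, Pcca at chr14:122534078-122534327 on the plus strand and Pccb at chr9:101034885-101035134 on the minus strand. Each is written 5′ to 3′ on the strand of its gene, with the letters CCAAT or their reverse complement ATTGG in capitals.
Mccc1: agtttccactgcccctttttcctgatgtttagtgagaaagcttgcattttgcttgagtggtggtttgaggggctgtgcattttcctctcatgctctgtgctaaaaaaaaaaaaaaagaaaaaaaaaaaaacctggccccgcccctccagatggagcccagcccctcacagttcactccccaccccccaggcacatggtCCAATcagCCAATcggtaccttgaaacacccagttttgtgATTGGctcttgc
Mccc2: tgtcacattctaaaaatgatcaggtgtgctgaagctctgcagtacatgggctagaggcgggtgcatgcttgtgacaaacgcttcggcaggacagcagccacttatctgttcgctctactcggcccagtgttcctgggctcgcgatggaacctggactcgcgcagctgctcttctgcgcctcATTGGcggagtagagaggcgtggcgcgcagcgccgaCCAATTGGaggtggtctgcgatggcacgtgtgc
Pcca: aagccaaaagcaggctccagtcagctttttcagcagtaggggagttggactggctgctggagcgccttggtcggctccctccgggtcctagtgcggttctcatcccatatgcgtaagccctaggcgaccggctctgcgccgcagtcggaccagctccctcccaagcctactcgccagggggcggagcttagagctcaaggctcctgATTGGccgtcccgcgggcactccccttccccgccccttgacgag
Pccb: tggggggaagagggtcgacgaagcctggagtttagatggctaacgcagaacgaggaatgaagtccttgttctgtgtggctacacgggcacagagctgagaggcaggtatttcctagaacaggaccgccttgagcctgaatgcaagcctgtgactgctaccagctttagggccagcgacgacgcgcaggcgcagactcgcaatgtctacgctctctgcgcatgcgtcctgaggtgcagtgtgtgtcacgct
Mccc1 held 3 such matches, Mccc2 held 3, of which 2 overlap in one palindrome, Pcca held 1 and Pccb none. Among the 10 genes 9, all but Dbt, matched an entry of the promoter table. Of these, 6 held CCAAT on either strand, against 33.8% of all 32851 stretches of that length. GGGCGG was in 4 of the 9 (32.7% of all), CACGTG in 1 (6.02% of all) and AGGTCA in 1 (14.0% of all), each on either strand. Such a match is a description of the letters and not a binding site.

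The second question was whether the diet mattered. None of the 10 genes was called between HF and LF mice by edgeR, DESeq2 or limma voom, where edgeR called 3.49% of all genes, 2.26% as higher and 1.24% as lower on HF. The log2 differences ran from -0.28 to 0.27. An unadjusted p under 0.05 was held by 2 of the 10 and by 1830 of all 11566 genes tested, a near share. These 2 were the subunits of propionyl-CoA carboxylase. Pcca was 0.27 ± 0.103 SE higher on HF (1.203-fold, adjusted p = 0.163), with a median of 66.0 CPM in HF and 54.1 CPM in LF mice. Pccb was 0.19 ± 0.0745 SE higher (1.14-fold, adjusted p = 0.174), with medians of 168 and 152 CPM. The HF livers of Pccb ran from 148 to 199.6 CPM and the LF livers from 96.2 to 169.9, so the diets overlapped. Bckdk was -0.28 ± 0.171 SE (adjusted p = 0.458), which in fed WT mice alone was -0.88 ± 0.366 SE (adjusted p = 0.811). Within single strata of genotype and feeding state no gene of the 10 was called, where 0.0778% of all genes were in WT fed, 1.12% in WT fasted, 0.00865% in KO fed and 1.68% in KO fasted mice. Among fasted KO mice Pccb differed by 0.38 ± 0.154 SE between diets (adjusted p = 0.250) and Bckdha by -0.44 ± 0.177 SE (adjusted p = 0.243).

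The comparison the study was built around is that of genotype. No gene of the 10 was called between KO and WT mice by edgeR, DESeq2 or limma voom, and their log2 differences lay between -0.06 and 0.09. Of all genes tested 0.00865% were called, which is Acadm itself, and 335 had an unadjusted p under 0.05, none of them among the 10. For 8 of the 10 genes the 95% intervals stayed between -0.26 and 0.24 on the log2 scale. The exceptions were Bckdk, from -0.39 to 0.31, and Mccc2, from -0.20 to 0.37. Within single strata none was called either, where again 1 gene in the table was. The smallest p-values before adjustment were those of Bckdk in LF fasted mice (-0.98 ± 0.329 SE, adjusted p = 0.674), Bckdha in HF fasted mice (-0.46 ± 0.176 SE, adjusted p = 0.999) and Bckdk in HF fed mice (0.80 ± 0.348 SE, adjusted p = 0.99993). The estimates of Bckdk in LF fasted and HF fed mice thus had opposite signs, and neither was called.

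**Figure D3:**
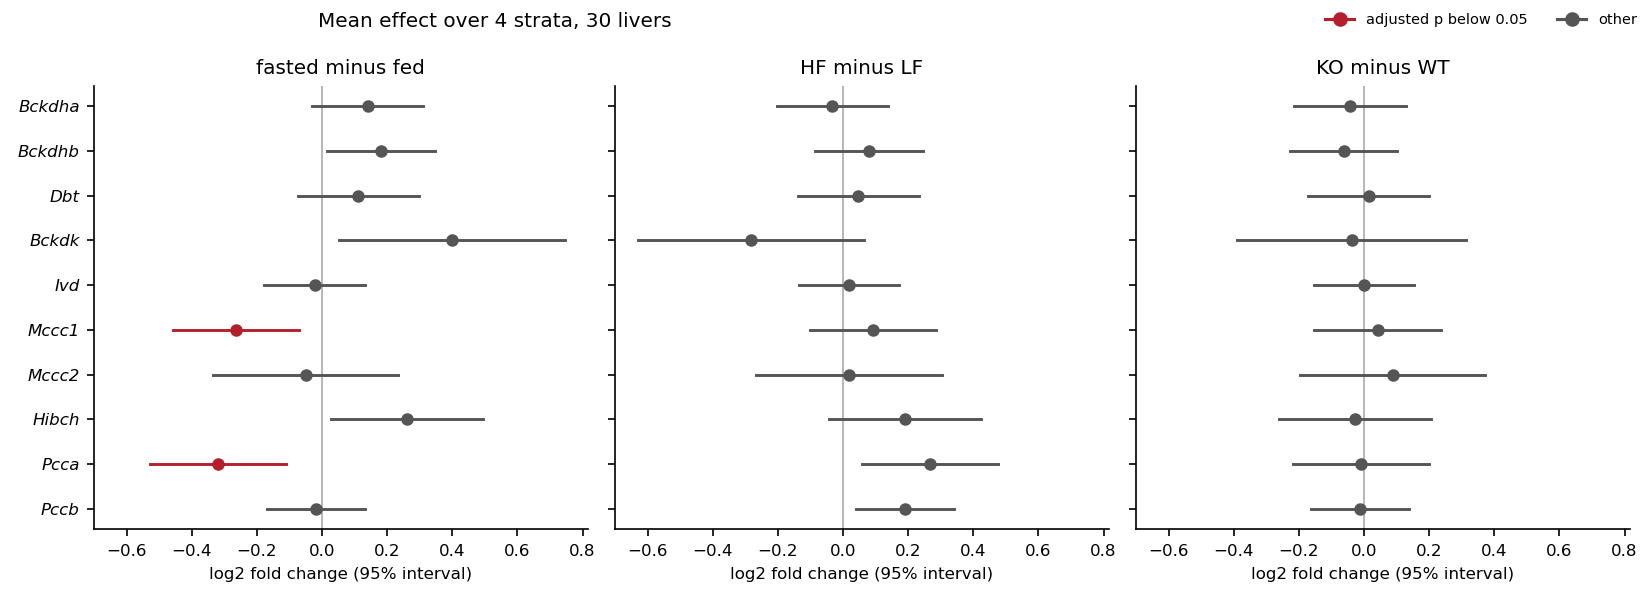
Mean log2 fold change of each of the 10 genes (points) with its 95% interval (bars) for fasting, diet and genotype, each averaged over the 4 strata of the other factors (30 livers). Red marks an adjusted p below 0.05, held by Mccc1 (-0.26) and Pcca (-0.32) for fasting, and the genotype differences all lie between -0.06 and 0.09.

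The strength of the fasting effect was also compared between diets and genotypes. None of the 10 genes was called for a difference of the fasting effect between HF and LF mice, where 2.46% of all genes were, and the nearest was Bckdhb (-0.38 ± 0.163 SE, adjusted p = 0.270 in edgeR). Fasting alone within each stratum called none of the 10, where 7.54% of all genes were called in WT LF, 0.424% in WT HF, 13.8% in KO LF and 0.527% in KO HF mice. No gene tested was called for a difference of the diet effect between genotypes in edgeR, DESeq2 or limma voom, while 397 had an unadjusted p under 0.05 in edgeR. Among those was Bckdk (0.76 ± 0.342 SE, adjusted p = 0.99997).

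Larger changes with fasting lay in some of the genes around these steps. Of 25 further genes of the pathway, 23 passed the filter, and of these 6 rose and 2 fell in fasted mice, where 18.9% of all genes were called. The median log2 change of the 23 was 0.09, against 0.00 over all genes tested. Their median size regardless of sign was 0.18, against 0.20 over all genes. The phosphatase gene Ppm1k, which encodes the counterpart of the kinase, rose 1.94-fold (log2 change of 0.96 ± 0.101 SE, adjusted p = 2.67e-09). It ran from 84.5 to 235 CPM in fed and from 190.3 to 397 CPM in fasted mice. Hsd17b10, a dehydrogenase of isoleucine breakdown, rose 2.36-fold (1.24 ± 0.126 SE, adjusted p = 4.12e-09), from a median of 132 to one of 277 CPM. Acat1, the thiolase that ends the isoleucine branch and also serves ketone bodies, rose 1.41-fold (adjusted p = 0.000163, but 0.338 within lane 7 alone). Bcat2, the mitochondrial aminotransferase, rose 1.44-fold at low counts (medians of 7.32 and 8.93 CPM, adjusted p = 0.0176). It lost its call without KO HF fasted replicate 1 (adjusted p = 0.0675). Of 13 other alternatives 10 called it, and within lane 8 its adjusted p was 0.403.

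Mmadhc, which takes part in cobalamin trafficking, rose 1.21-fold (adjusted p = 0.0269). Its call was lost without KO HF fasted replicate 2, KO HF fasted replicate 3, KO LF fasted replicate 4 or WT HF fasted replicate 4, at adjusted p-values of 0.0635, 0.0535, 0.0590 and 0.0602. Of 13 other alternatives 10 called Mmadhc, and within lane 7 its adjusted p was 0.936. Slc25a44, a mitochondrial carrier of branched-chain amino acids, fell to 0.58-fold (-0.79 ± 0.0993 SE, adjusted p = 9.96e-08), from 68.0 to 151 CPM in fed to 44.8 to 70.3 CPM in fasted mice. Mmab, the adenosyltransferase that makes the cobalamin cofactor of methylmalonyl-CoA mutase, fell to 0.40-fold (-1.33 ± 0.158 SE, adjusted p = 3.37e-08), from a median of 20.2 to one of 8.97 CPM. Within lane 7 alone the adjusted p of this fall was 0.0745. No subunit of the dehydrogenase complex was among the genes that passed. Between diets 2 of the 23 were called, where 3.49% of all genes were. Mmab was 1.45-fold higher on HF (adjusted p = 0.0459, lost without any one of 20 of the 30 mice, with adjusted p-values up to 0.107 without KO HF fasted replicate 3), and Btd, the enzyme that recycles biotin, was 0.73-fold (-0.46 ± 0.111 SE, adjusted p = 0.0119). Btd had medians of 34.7 CPM in HF and 43.4 CPM in LF mice. It was called whichever single mouse was left out, but in only 10 of 13 other alternatives. Within lane 8 its adjusted p was 0.434. None of the 23 was called for genotype, and none for a difference of the fasting effect between diets, with an adjusted p of at least 0.0602 (Hsd17b10, -0.86 ± 0.249 SE).

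**Figure D4:**
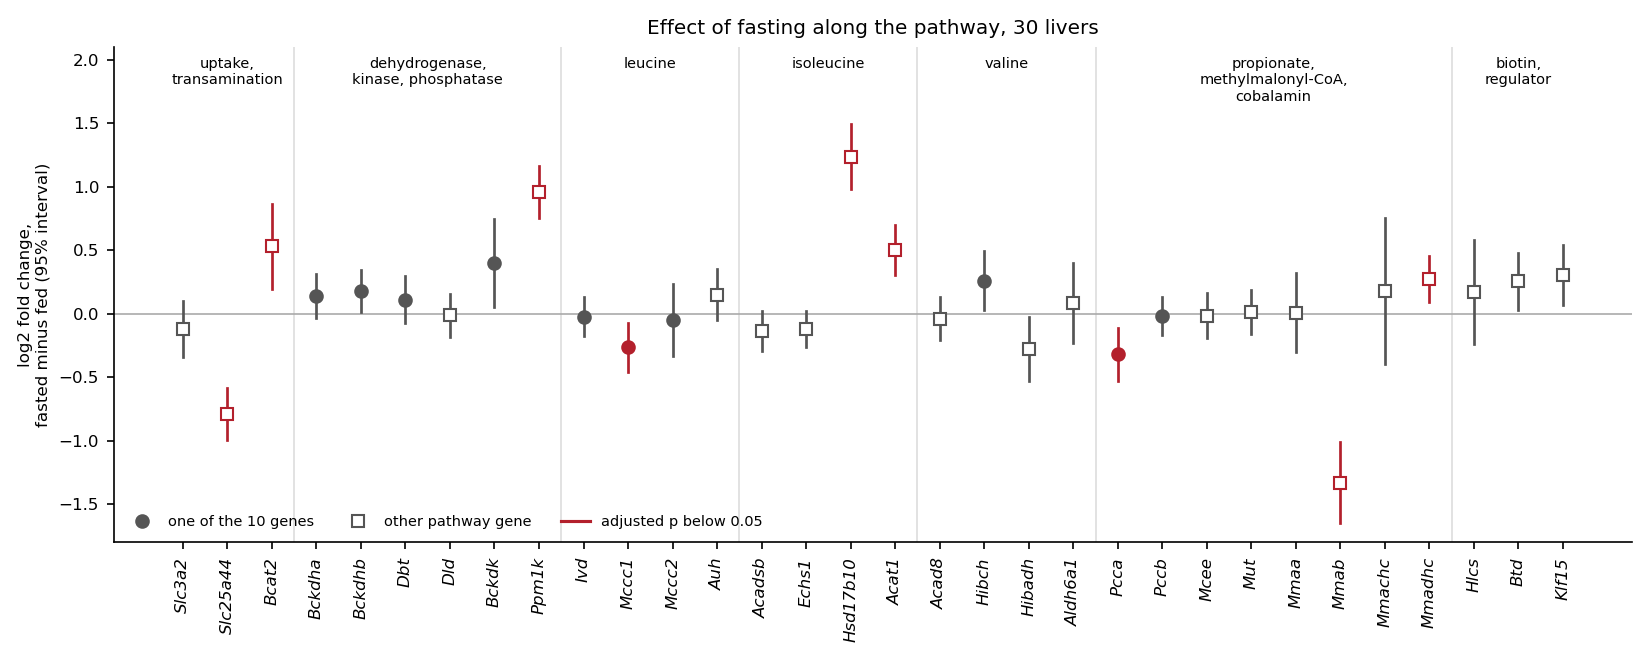
Log2 fold change with fasting (vertical axis, 95% interval as bars, 30 livers) of the 10 genes (filled circles) and other genes of the pathway (open squares; 1 of the 23 is not drawn), ordered along the horizontal axis by step. Red marks an adjusted p below 0.05; Ppm1k (0.96), Hsd17b10 (1.24) and Mmab (-1.33) lie farther from 0 than any of the 10 genes, which stay between -0.32 and 0.40.

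Genes with a similar course over the 8 groups were sought for the 3 of the 10 with the widest range of group means on the log2(CPM + 1) scale. The measure was the root mean square difference of the group means, each gene centred on its own mean, over 5264 genes with a mean of at least 20 CPM. For Bckdk, with a range of 1.44, they were Gm10319 (difference of 0.18) and Thap12 (0.20). For Pcca, with a range of 0.63, it was Iyd (0.06), and for Hibch, with a range of 0.51, Upf2 (0.06) and Tm4sf4 (0.07). These are descriptions over 8 group means.

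Some of these genes share exon bases with neighbours. Exons of Pcca share 241 bases with Ggact on the opposite strand, which held 3644 counts over the 32 libraries, and exons of Bckdha share 1171 bases with B3gnt8, which held 140 counts. Exons of Mccc1 share 94 bases with Gm15952 (130 counts) and 198 with Mccc1os (12 counts). The study counted reads with the union mode of HTSeq. Its strand setting is not given in the sources used here, so how reads on the shared bases were assigned or left out is not known.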

How the data were processed

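Libraries of 32 samples labelled mouse liver, 1 of which held heart by its markers, were made with a 3′ mRNA kit and sequenced on 2 lanes by the authors. Per the labels and the study's methods, reads were aligned to GRCm38 with HISAT 0.1.5 and sorted with SAMtools 1.2. They were then counted per Ensembl gene with HTSeq 0.6.1p1 in union mode. The strand setting is not given in the sources used here. The methods name fewer samples per lane than the lane labels and a later Ensembl release than the deposited table, which was not resolved; lanes here are those of the labels. The deposited values are raw counts of 20076 genes, with 19913 identifiers matched to a symbol. The 163 without one held 0.125% of the counts and stayed in the library sizes. The 10 genes and all lists were chosen with earlier results of these data known. Groups came from the labels.

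Without WT LF fed replicate 2 and KO HF fasted replicate 4, counts of 30 mice were filtered (filterByExpr), normalised by TMM and tested with edgeR 4.0.16 (robust quasi-likelihood F test, a coefficient per group, Benjamini-Hochberg adjustment over 11566 genes, threshold 0.05) in R 4.3.3. CPM are per effective library size, and a 95% interval is the change and its SE times the t quantile. Named were the 10 genes, the listed pathway genes called for fasting, diet or genotype, and the nearest 2 genes in course. DESeq2 1.42.0, limma 3.58.1 voom, other filters and normalisation, lane, age, a replicate block, and other sets of mice were alternatives. The ratios of genes and their alternatives were added after the values had been seen and carry no test. No 2 libraries of a group agreed within sampling noise. The labels do not say more on litters or cages, so p-values measure the spread between these mice. The test was tried on simulated data. A group mean rests on 3 or 4 mice, and counts as low as 8 limit Bckdk. Lane 7 held 16 and lane 8 held 14 of the mice used. Within a lane some groups held a single liver, and lane 7 held no WT LF fed mouse, which limits every value given within a lane. Of the genes that the naming rule selected, 2 are not reported here.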

Additional observations from a re-analysis of the deposited data

Results flagged for a closer look

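The libraries left out of the comparisons held 3 values above all 30 mice used, and all of them came from KO HF fasted replicate 4, the library that by its markers was heart and not liver (41482 CPM of heart and 1111 CPM of hepatocyte markers), so that they are not liver values. In it Bckdk was at 31.4 CPM, against 3.004 to 17.4 CPM in the 30 mice, Ivd was at 214 CPM, against 91.4 to 143 CPM, and Mccc1 was at 81.6 CPM, against 27.6 to 63.2 CPM. WT LF fed replicate 2, the other library left out, exceeded the 30 mice for none of the 10 genes. It was below them for Ivd, at 76.01 CPM, and for Pccb, at 80.4 CPM against a lowest value of 96.9 CPM. Values here are scaled over all 32 libraries. In the 60 groups of 4 livers, over the 10 genes, no liver passed Dixon's test for an outlier. With 4 values per group and each gene taken alone, this test can hardly single out a liver. Its result does not show that none stood apart. The KO LF fasted liver described above, the lowest of the 30 mice for several genes at once, did not pass it either. No difference of an effect between diets or genotypes was called for any of the 10.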

How the results depend on the processing

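Of the 10 genes 2 were called for fasting. The count was 1 with all 32 mice (Bckdk) and 1 in the 31 mice that included KO HF fasted replicate 4, both with the heart library among the fasted mice. It was 0 in the 31 that included WT LF fed replicate 2, 1 with no filter, 1 with lane as a term (Mccc1), and 0 within lane 7, which held no WT LF fed mouse. It was 3 with limma voom (Bckdk, Mccc1 and Pcca) and 2 within lane 8 (Hibch and Pcca). It ranged from 0 to 2 when 1 mouse at a time was left out, being 0 without KO HF fasted replicate 2 or WT HF fed replicate 4. Within single strata it ranged from 0 to 1 for WT HF and from 0 to 1 for KO LF mice. It was 2 by DESeq2, RLE normalization, the filter at a mean of 5 CPM and age as a term. With the replicate block it was 1 (Pcca), and Mccc1 had an adjusted p of 0.0639. Replicate numbers did not pair the mice: deviations of same-numbered mice correlated at a median of 0.00603 over 98 pairs, against -0.00207 over 295 others, and 5 of 30 mice correlated best with their own number. Over all genes the block called 2124 for fasting and 360 for diet, and of the single effects printed it changed no call but that of Mccc1. Over the pathway list 8 genes were called for fasting, 3 within lane 7 and 7 to 10 without single mice; for diet there were 2, with 0 for all 32 mice, 0 with KO HF fasted replicate 4 included, 0 within lane 8, 1 within lane 7, 1 with limma voom, 1 with no filter, 1 with age as a term and 1 to 2 without single mice. The cause was not tested.

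Small effects that were not called changed sign (log2 scale). Ivd was 0.0798 with all 32 mice, 0.00796 with WT LF fed replicate 2 included, 0.0479 with KO HF fasted replicate 4 included, 0.0467 within lane 7, and -0.0525 to 0.0111 without single mice. Mccc2 was 0.112 within lane 8 and -0.117 to 0.0175 without single mice. Pccb was 0.0270 with WT LF fed replicate 2 included, 0.0380 within lane 7 and -0.0484 to 0.0160 without single mice. Bckdhb was -0.0212 within lane 8. The genotype difference of Mccc2 was -0.188 within lane 7. In alternatives chosen after seeing the data, the ratio of Bckdha to Bckdhb was 0.217 within lane 8 and that of Mccc1 to Mccc2 was 0.0743 within lane 7. Alternatives are listed only for effects printed one by one, a selection made after the alternatives had been computed. Of the other 15 diet and genotype differences, 11 changed sign under some alternative, none was called under any, and all stayed between -0.19 and 0.30. Over all genes, fasting called 2187 in the 30 mice, 1553 in all 32, 344 within lane 7 and 1449 within lane 8, and diet called 404, 81, 53 and 85.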
